A study of Caenorhabditis elegans with 9 samples.

Results

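Cytochrome P450 genes were read on Affymetrix arrays in starved first-stage larvae (L1) of the nematode Caenorhabditis elegans. The strains were oga-1(ok1207), a loss of the O-GlcNAcase, ogt-1(ok430), a loss of the O-GlcNAc transferase, and wild type (WT), with 3 arrays each that the labels call biological replicates. Bleaching of gravid adults gave the embryos of every strain, which hatched without food in shaken sterile buffer and were harvested 48 h later, so starvation is common to all groups. Each mutant is 1 allele, and every value averages over all cells of the larva, so fewer cells of a type and less RNA per cell cannot be told apart. The genes were those whose probe set carries a single platform symbol of the form cyp- followed by a family number and a letter. There were 73 such genes among the 17118 genes with a single symbol, read by 78 probe sets, and each gene was read by its brightest probe set. The 73 genes fall into 25 subfamilies, 13 of them with 1 gene, and 42 of the genes lie on chromosome V of assembly WBcel235. The assembly's gene table lists 3 of them, cyp-29A1, cyp-31A1 and cyp-34A3, as pseudogenes. Another 2 probe sets that carry several cyp- symbols each were left out.

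Cytochrome P450s are haem-containing monooxygenases, most of them anchored in the endoplasmic reticulum, which take electrons from the P450 reductase EMB-8 and insert oxygen into lipids, steroids, drugs and toxins. In the worm many are expressed in the intestine, and genes of the cyp-35 family are induced strongly by foreign compounds and serve as reporters of exposure. Other members make signalling lipids from polyunsaturated fatty acids. The P450 DAF-9, whose gene symbol does not start with cyp-, makes the dafachronic acids that bind the nuclear receptor DAF-12. The enzyme OGT-1 places O-GlcNAc, a single sugar, on nuclear and cytoplasmic proteins, and OGA-1 removes it.

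All values below are log2 array values as deposited, given for replicates 1, 2 and 3 in that order. Array medians ran from 6.80 to 6.87. The 5 control probe sets for yeast genes read from 4.41 to 6.26 (strain means), so a strain mean at or below 6.26 is not shown to be above background. By that level 38 of the 73 genes were above background in no strain, 29 in all 3 strains, and 6 in some, with 33 in oga-1, 30 in ogt-1 and 31 in WT. Of the probe sets of the mutated genes, the dimmer one for ogt-1 averaged 10.62 in oga-1, 10.41 in ogt-1 and 11.02 in WT, and fell by 0.61 in ogt-1 (adjusted p = 0.0124). In the same strain the other, brighter probe set for that gene was not called (-0.22, adjusted p = 0.581), nor were the 3 for oga-1 in the oga-1 strain (adjusted p from 0.953 to 0.986), and the probes' places relative to the deletions are not given in the sources used here. Strains are therefore named by their labels. Of 7 adult, oocyte and sperm markers, which a first-stage larva should lack, 3 were at or below the background level in every strain, among them the yolk gene vit-2 at 4.62 in oga-1, 4.67 in ogt-1 and 4.56 in WT (means). Of the other 4, the yolk receptor gene rme-2 (7.02 in oga-1, 7.33 in ogt-1 and 7.08 in WT) and vit-6 (6.79 in oga-1, 6.77 in ogt-1 and 6.81 in WT) were above that level in every strain, fog-3 (6.52 in oga-1, 6.24 in ogt-1 and 6.83 in WT) in oga-1 and WT, and spe-9 (6.07 in oga-1, 6.04 in ogt-1 and 6.33 in WT) in WT, and none of the 7 was called.

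In the fit over all arrays, 5 of the 73 genes fell in at least 1 mutant and none rose. In the comparison of ogt-1 with WT, cyp-33C4, cyp-33C3, cyp-33C5, cyp-32B1 and cyp-13A2 fell in ogt-1, by 1.49-fold for cyp-33C5 to 2.11-fold for cyp-33C4, and the other 68 did not pass. In the comparison of oga-1 with WT, cyp-32B1 fell 1.53-fold and cyp-33C4 1.69-fold in oga-1, and the other 71 did not pass. Calls required a limma p-value, adjusted by Benjamini-Hochberg over all 22548 probe sets of the comparison, under 0.05. The called share was 6.85% of the P450 genes in ogt-1, against 3.91% of all probe sets, and 5 falls among the 73 stand beside a background of 2.12% called lower and 1.79% called higher. In oga-1 the share was 2.74% against 1.93%, with a background of 1.21% called lower and 0.727% called higher. Of all 17118 genes, each read by its brightest probe set as the P450 genes were, 4.32% were called in ogt-1 and 2.11% in oga-1. Both comparisons use the same WT arrays. With replicate number as a block on the oga-1 and WT arrays alone, 6 genes were called lower and 1, cyp-35C1, higher in oga-1, as given further on. In that fit 3.29% of all probe sets were called lower and 2.55% higher.

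**Figure D1:**
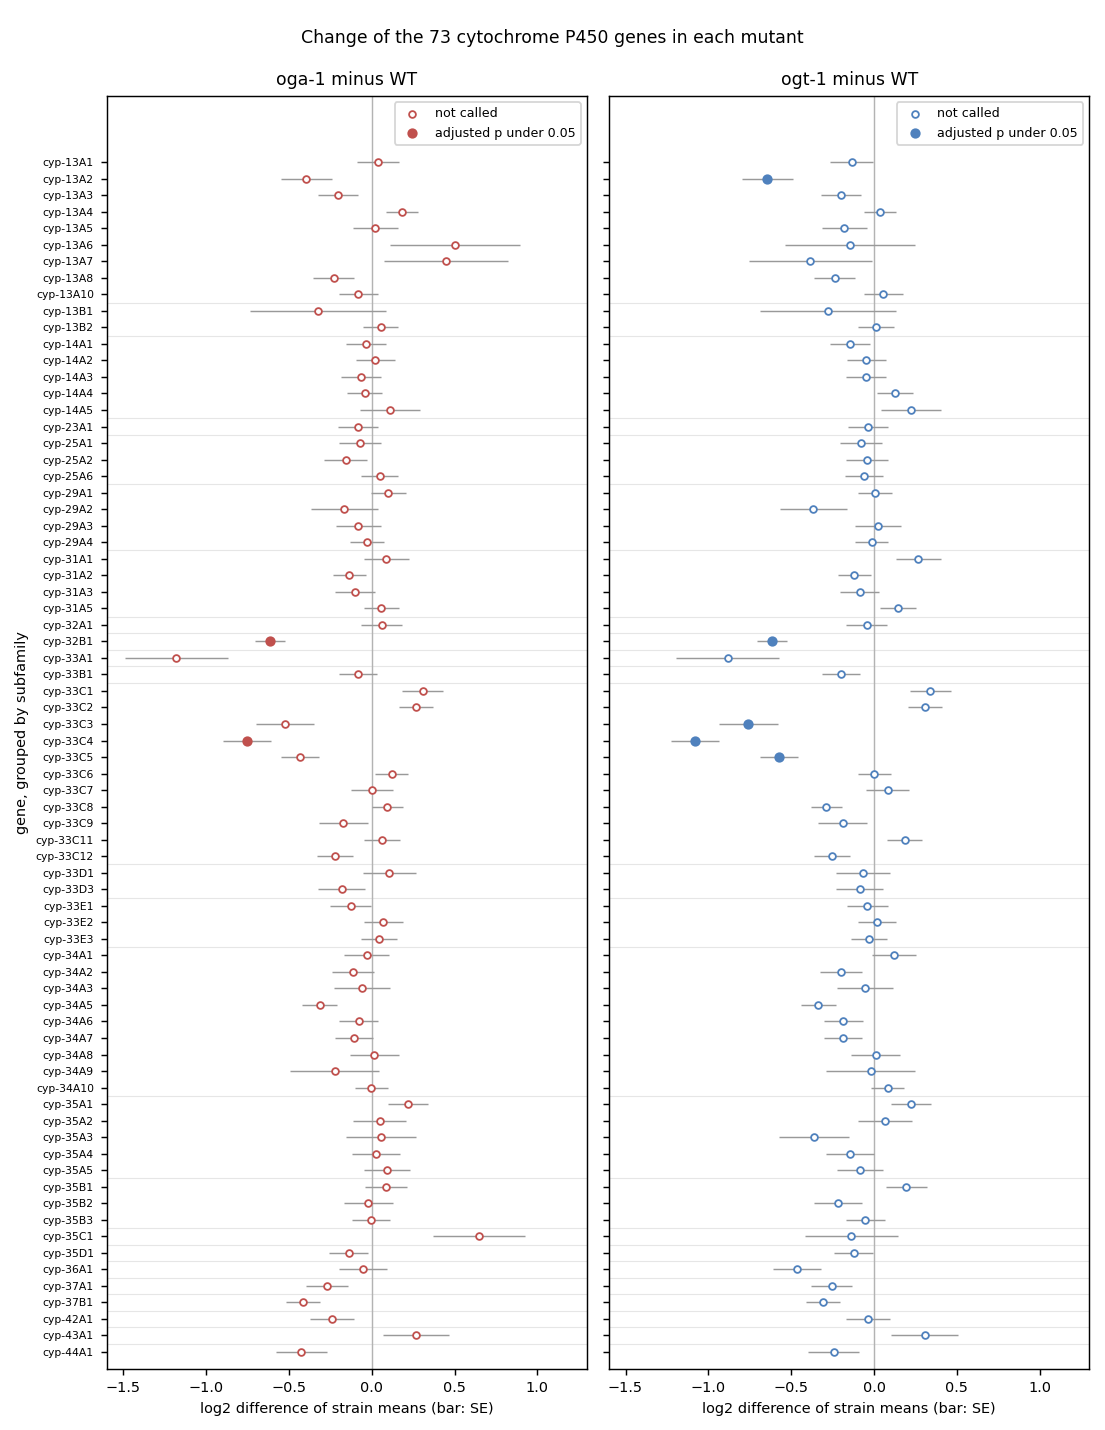
Log2 difference of strain means (x axis, bars are the standard error) for the 73 P450 genes (y axis, grouped by subfamily), oga-1 minus WT on the left and ogt-1 minus WT on the right; filled points passed an adjusted p under 0.05. The filled points are 2 on the left and 5 on the right, all below 0, and most other genes lie within 0.5 of 0.

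The median difference over the 73 genes was -0.03 in oga-1, beside 0.01 over all probe sets, and -0.08 in ogt-1, beside 0.01 over all probe sets. Below 0 lay 42 of the 73 genes in oga-1 and 51 in ogt-1. Of all 17118 genes, 8206 lay below 0 in oga-1 and 8580 in ogt-1. Among the 73, the count after median centring was 40 in oga-1 and 47 in ogt-1. After quantile normalisation it was 43 in oga-1 and 50 in ogt-1. The 3 arrays of oga-1 lay wholly below the 3 of WT for 11 genes and wholly above for 3, or 19.2% of the genes, where 16.5% of all probe sets did not overlap (8.05% below and 8.43% above). For ogt-1 the counts were 13 below and 4 above, or 23.3%, where 22.5% of all probe sets did not overlap (10.7% below and 11.8% above). Summed over both directions these shares are near the background. By direction, 15.1% of the P450 genes in oga-1 and 17.8% in ogt-1 lay below, and 4.11% in oga-1 and 5.48% in ogt-1 lay above, to be read against the shares of all probe sets in parentheses. For 67 of the 73 genes in oga-1 and 68 in ogt-1 the 95% interval of the difference from WT lay within a log2 difference of 1 either way, which is 2-fold. The intervals that reached 1 were those of cyp-13A6, cyp-13A7, cyp-13B1, cyp-33A1 and cyp-33C4 in oga-1, with cyp-35C1, and of cyp-13A7, cyp-13B1, cyp-33A1, cyp-33C3 and cyp-33C4 in ogt-1.

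The P450s of the nematode fall by sequence into broad clans named after vertebrate families, and the members are described by clan. Clan 2, which holds the cyp-14, cyp-33, cyp-34, cyp-35 and cyp-36 families and includes drug- and toxin-metabolising enzymes, had 43 genes. Of these, 1 fell and 42 did not pass in oga-1, and 3 fell and 40 did not pass in ogt-1, with medians of -0.02 in oga-1 and -0.07 in ogt-1. The falls in clan 2 were all in the subfamily cyp-33C, which had 11 measured genes. The gene cyp-33C4 read 7.98, 8.24 and 8.29 in oga-1, 7.78, 7.88 and 7.88 in ogt-1, and 8.83, 8.69 and 9.25 in WT. All 6 mutant arrays lay below all 3 WT arrays, and the ogt-1 arrays lay lowest. Its change was -1.08 ± 0.145 (SE) in ogt-1 (adjusted p = 0.00181, 0.000829 to 0.0116 over the alternatives tried) and -0.76 ± 0.145 in oga-1 (adjusted p = 0.0235). The call in oga-1 was lost in a fit on the 2 strains alone (adjusted p = 0.0759) and without WT replicate 3 (0.0546) or oga-1 replicate 1 (0.112).

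The neighbouring gene cyp-33C3 read 6.76, 7.07 and 7.22 in oga-1, 6.87, 6.75 and 6.72 in ogt-1, and 7.35, 7.30 and 7.98 in WT. WT replicate 3 was the highest array, and every mutant array lay below every WT array. The change was -0.76 ± 0.176 in ogt-1 (adjusted p = 0.0368), a call lost after quantile normalisation (adjusted p = 0.0502) and without WT replicate 3 (0.0849), or replicate 1 (0.0686), 2 or 3 (0.136 each) of ogt-1. In oga-1 it was -0.52 and did not pass (adjusted p = 0.180, and 0.0335 with the replicate block on the 2 strains alone). Next to it, cyp-33C5 read 6.83, 7.13 and 7.06 in oga-1, 6.79, 6.84 and 6.96 in ogt-1, and 7.39, 7.35 and 7.57 in WT. Here too the mutant and WT arrays did not overlap. It fell by 0.57 on the log2 scale in ogt-1 (adjusted p = 0.0170), a call lost without WT replicate 3 (adjusted p = 0.0670), ogt-1 replicate 1 (0.0554) or ogt-1 replicate 2 (0.0868). The difference in oga-1 was -0.43 (adjusted p = 0.0831, and 0.0485 with the replicate block on the 2 strains alone). The probe sets of cyp-33C4 and cyp-33C5 are of the type (suffix x) in which some probes also match other transcripts, so these readings may mix related P450 transcripts, while cyp-33C3 was read by a probe set without that suffix.

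**Figure D2:**
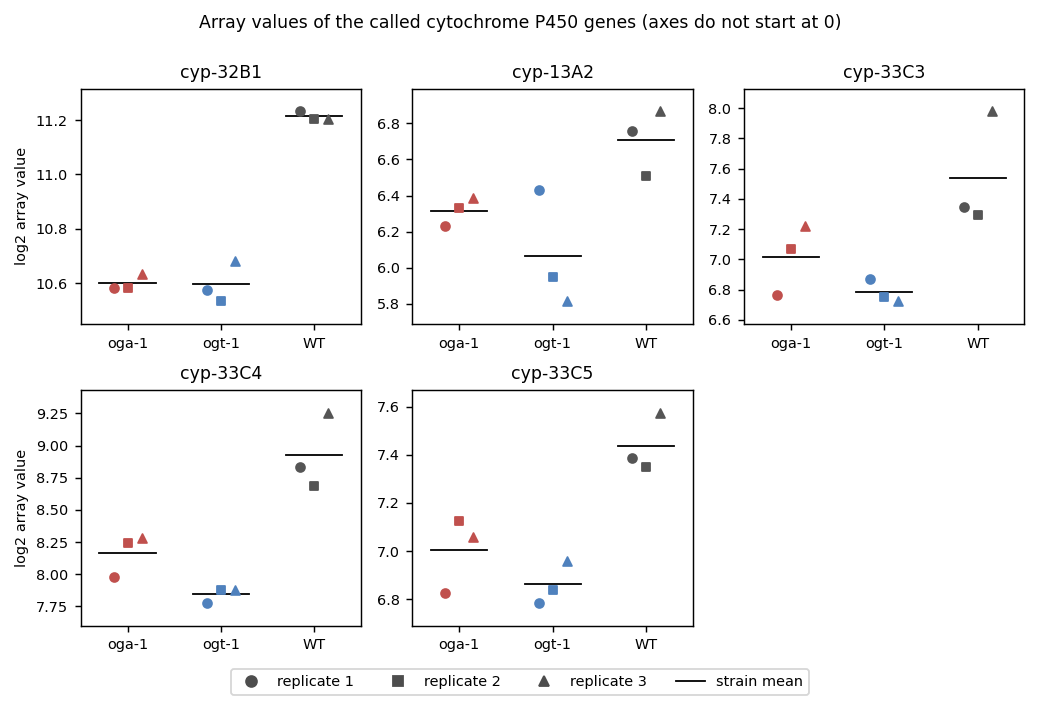
Log2 array values (y axis, not starting at 0) of the 5 called P450 genes in oga-1, ogt-1 and WT (x axis), with a marker shape for each replicate and a line for the strain mean. In every panel all 6 mutant arrays sit below the 3 WT arrays; for cyp-13A2, ogt-1 replicate 1 (6.43) comes close to WT replicate 2 (6.51).

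Of the 5 genes that fell, 4 lie in 1 stretch of chromosome V, and cyp-13A2 lies on chromosome II. The bounds of this stretch were set after the calls were known, and no values are given here for its genes that are not P450s. In the protein-coding gene order of WBcel235, cyp-33C4, cyp-33C3, cyp-33C5, cyp-33C6 and cyp-33C7 follow one another without a break, and cyp-32B1 and cyp-33C12 form a pair in the same stretch of 25 genes, which holds 9 of the 73. Within the run of 5, the first 3 were those called in ogt-1, and the other two did not pass. The gene cyp-33C6 read 5.44 in oga-1, 5.32 in ogt-1 and 5.32 in WT (strain means), below the background level. The means of cyp-33C7 were 7.51 in oga-1, 7.59 in ogt-1 and 7.51 in WT, with a 95% interval of the difference of -0.20 to 0.36 in ogt-1. At the start of the stretch, cyp-33C1 and cyp-33C2 had positive differences that were not called, at levels not above background. For cyp-33C1 the arrays read 6.03, 6.10 and 6.18 in oga-1, 5.98, 6.18 and 6.23 in ogt-1, and 5.58, 6.0 and 5.80 in WT, a difference of 0.31 in oga-1 (adjusted p = 0.274) and 0.34 in ogt-1 (adjusted p = 0.172). For cyp-33C2 they read 5.36, 5.49 and 5.27 in oga-1, 5.28, 5.44 and 5.52 in ogt-1, and 5.1, 5.15 and 5.07 in WT, with every mutant array above every WT array (adjusted p = 0.258 in oga-1 and 0.142 in ogt-1). In 10 unbroken runs of 2 to 7 genes lay 35 of the 73 genes. The run cyp-34A5 to cyp-34A10 had no called gene, nor had cyp-35A5 to cyp-35B3 or cyp-14A1 to cyp-14A3, and the run cyp-13A2 to cyp-13A8 had 1.

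**Figure D3:**
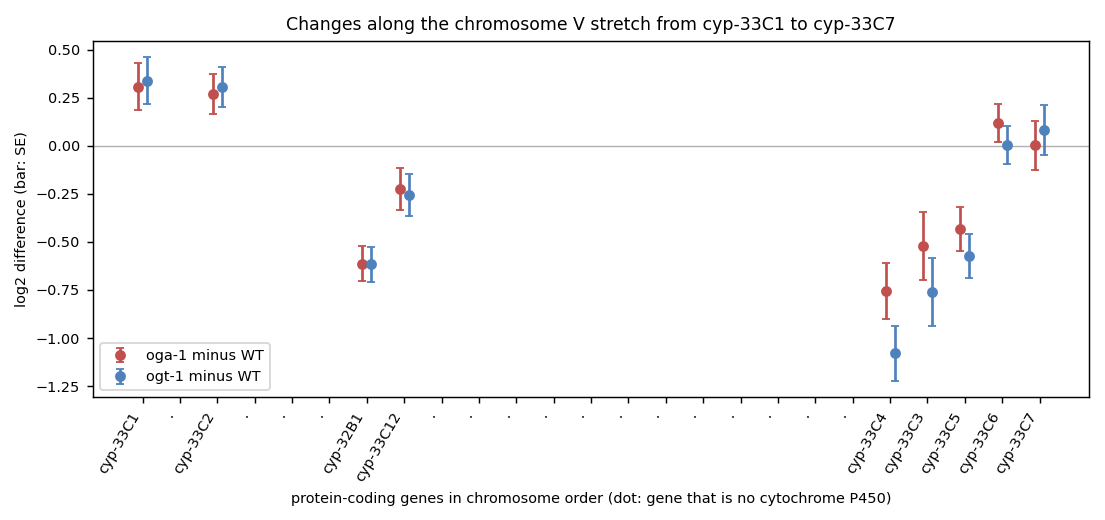
Log2 difference from WT (y axis, bars are the standard error) of the 9 P450 genes among the 25 protein-coding genes from cyp-33C1 to cyp-33C7 on chromosome V, in gene order (x axis), for oga-1 and ogt-1. The genes cyp-32B1, cyp-33C4, cyp-33C3 and cyp-33C5 lie below -0.4 in both mutants, and cyp-33C6 and cyp-33C7 lie near 0.

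Of the other cyp-33 genes, cyp-33A1 had the largest difference of any P450 gene in oga-1 and was not called without the replicate block. Its arrays read 8.41, 7.45 and 8.17 in oga-1, 8.81, 8.26 and 7.85 in ogt-1, and 9.02, 8.75 and 9.80 in WT. The oga-1 arrays lay below the WT arrays, while 1 ogt-1 array lay among them, and each strain's arrays were far apart. The differences were -1.18 ± 0.311 in oga-1 (adjusted p = 0.0840) and -0.88 ± 0.311 in ogt-1 (adjusted p = 0.158). For oga-1 the adjusted p was 0.00354 with the replicate block on the 2 strains alone and 0.0384 with it on all 9 arrays. The gene cyp-33C8 read 8.59, 8.54 and 8.42 in oga-1, 8.11, 8.11 and 8.18 in ogt-1, and 8.37, 8.42 and 8.47 in WT. Its ogt-1 arrays lay below all others, at -0.29 against WT (adjusted p = 0.126), and 0.38 separated oga-1 from ogt-1 (adjusted p = 0.197). Arrays of cyp-33C11 read 6.20, 6.33 and 6.12 in oga-1, 6.48, 6.30 and 6.23 in ogt-1, and 6.07, 6.16 and 6.23 in WT, with ogt-1 above WT on every array (0.18, adjusted p = 0.448). Its oga-1 and WT means lay below the background level. The single cyp-33B gene, cyp-33B1, read 5.43, 5.47 and 5.51 in oga-1, 5.29, 5.26 and 5.49 in ogt-1, and 5.38, 5.73 and 5.54 in WT, at background. Among the cyp-33E genes, cyp-33E1 read 7.06, 6.93 and 7.23 in oga-1, 7.13, 7.18 and 7.17 in ogt-1, and 7.42, 7.19 and 6.99 in WT, with overlapping arrays. The gene cyp-33E2, known for making eicosanoids from long-chain fatty acids, averaged 6.14 in oga-1, 6.09 in ogt-1 and 6.07 in WT, at background in every strain. The brighter cyp-33D gene, cyp-33D1, read 5.87, 6.43 and 5.82 in oga-1, 5.73, 5.82 and 6.05 in ogt-1, and 5.78, 6.04 and 5.98 in WT, with every strain mean at background.

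The cyp-35 family had 10 measured genes and none was called in the fit over all arrays. In cyp-35A, whose genes respond to foreign compounds and affect fat storage, the 5 genes had medians of 0.06 in oga-1 and -0.08 in ogt-1. The brightest of them, cyp-35A2, read 7.40, 7.02 and 7.03 in oga-1, 7.03, 7.33 and 7.14 in ogt-1, and 7.42, 7.07 and 6.81 in WT. The strains overlapped fully, and the 95% interval of the difference from WT was -0.31 to 0.40 in oga-1 and -0.29 to 0.42 in ogt-1. For cyp-35A3 the values were 6.29, 6.62 and 5.91 in oga-1, 5.89, 5.98 and 5.71 in ogt-1, and 6.66, 6.19 and 5.81 in WT, and its oga-1 minus ogt-1 difference was 0.42 (adjusted p = 1.000). The ogt-1 and WT means of cyp-35A3 lay below the background level. At background, cyp-35A1 read 4.66, 4.95 and 4.58 in oga-1, 4.90, 4.68 and 4.62 in ogt-1, and 4.49, 4.51 and 4.54 in WT, with all mutant arrays above all WT arrays and neither difference called (adjusted p = 0.471 in oga-1 and 0.397 in ogt-1). The gene cyp-35B1, known as a downstream gene of the FOXO factor DAF-16, read 4.98, 4.87 and 4.75 in oga-1, 4.89, 5.12 and 4.92 in ogt-1, and 4.97, 4.80 and 4.56 in WT, at background in every strain, as did cyp-35B3 at 5.92, 5.90 and 5.61 in oga-1, 5.83, 5.69 and 5.77 in ogt-1, and 5.67, 5.93 and 5.85 in WT. The largest differences of the family for oga-1 minus WT and oga-1 minus ogt-1 were those of cyp-35C1, which read 6.86, 7.03 and 6.24 in oga-1, 5.64, 6.32 and 5.82 in ogt-1, and 6.62, 6.06 and 5.50 in WT. The difference was 0.65 ± 0.278 for oga-1 minus WT (adjusted p = 0.319, and 0.0241 with the replicate block on the 2 strains alone). It was -0.14 for ogt-1 minus WT (adjusted p = 0.892) and 0.78 for oga-1 minus ogt-1 (adjusted p = 0.663). The arrays of all 3 strains overlapped. The WT and ogt-1 means lay below the background level, so the size of the oga-1 to WT ratio, 1.57-fold as read, is uncertain. The 95% interval of the oga-1 minus WT log2 difference was 0.04 to 1.26. This probe set has the suffix s, and a dimmer probe set for cyp-35C1 without a suffix averaged 5.97 in oga-1, 5.65 in ogt-1 and 5.63 in WT, at background in every strain, with a difference of 0.34 for oga-1 minus WT (adjusted p = 0.448). A 1-gene subfamily, cyp-35D1, known for metabolising the drug thiabendazole, read 5.42, 5.37 and 5.26 in oga-1, 5.52, 5.27 and 5.30 in ogt-1, and 5.35, 5.70 and 5.42 in WT, at background.

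Of the 9 cyp-34A genes, 8 lay below 0 in oga-1 and 6 in ogt-1, and none was called. The gene cyp-34A5 read 5.53, 5.68 and 5.56 in oga-1, 5.68, 5.46 and 5.57 in ogt-1, and 6.02, 5.80 and 5.89 in WT, below WT on all 6 mutant arrays, with adjusted p = 0.178 in oga-1 and 0.109 in ogt-1. These values are below the background level. The gene cyp-34A9, one of those named for acting downstream of DAF-16, read 9.29, 8.72 and 8.67 in oga-1, 8.89, 9.21 and 9.19 in ogt-1, and 9.71, 9.20 and 8.44 in WT. Its WT arrays spread from 8.44 to 9.71, wider than any difference between strains, which was -0.22 in oga-1 and -0.02 in ogt-1. At background, cyp-34A1 read 5.91, 5.45 and 5.71 in oga-1, 5.95, 5.93 and 5.64 in ogt-1, and 5.71, 5.81 and 5.64 in WT.

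The cyp-14 genes cyp-14A1 to cyp-14A4 were at background in every strain, among them cyp-14A4 at 5.14, 5.2 and 5.0 in oga-1, 5.45, 5.18 and 5.23 in ogt-1, and 5.1, 5.18 and 5.2 in WT. The fifth, cyp-14A5, read 9.19, 8.61 and 8.76 in oga-1, 8.76, 9.02 and 9.13 in ogt-1, and 9.07, 8.73 and 8.44 in WT. The arrays overlapped, and the difference in ogt-1 was 0.22 (adjusted p = 0.641). The gene cyp-36A1, known for acting downstream of the oxygen sensor EGL-9 in egg laying, read 7.88, 7.65 and 7.92 in oga-1, 7.62, 7.39 and 7.20 in ogt-1, and 7.85, 7.64 and 8.11 in WT. The ogt-1 arrays lay below all others, at -0.46 ± 0.146 against WT (adjusted p = 0.112) and with an oga-1 minus ogt-1 difference of 0.41 (adjusted p = 0.663). In oga-1 the difference from WT was -0.05, with a 95% interval of -0.37 to 0.27.

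Clan 4 enzymes oxidise fatty acids and related lipids, and it had 13 genes in the cyp-29, cyp-31, cyp-32, cyp-37 and cyp-42 families. In each mutant 1 of them fell and 12 did not pass, with medians of -0.10 in oga-1 and -0.04 in ogt-1. The gene that fell, cyp-32B1, read 10.58, 10.58 and 10.64 in oga-1, 10.58, 10.53 and 10.68 in ogt-1, and 11.23, 11.21 and 11.21 in WT. Its standard deviation was 0.0302 in oga-1, 0.0765 in ogt-1 and 0.0156 in WT, and all 6 mutant arrays lay below the 3 WT arrays. The change was -0.61 ± 0.0913 in oga-1 (adjusted p = 0.00836, 0.00623 to 0.0463 over the alternatives) and -0.62 ± 0.0913 in ogt-1 (adjusted p = 0.00334, 0.00244 to 0.0300 over the alternatives). The mutants differed from each other by 0.00, with a 95% interval of -0.20 to 0.20. Its probe set has the suffix s, for probes that match more than 1 transcript. The related gene cyp-32A1 read 7.43, 7.52 and 7.39 in oga-1, 7.57, 7.33 and 7.12 in ogt-1, and 7.45, 7.47 and 7.23 in WT, with no call.

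The gene cyp-37B1 read 10.97, 10.97 and 10.95 in oga-1, 11.05, 11.13 and 11.02 in ogt-1, and 11.51, 11.40 and 11.22 in WT. All 6 mutant arrays lay below the WT arrays and the oga-1 arrays lay below the ogt-1 arrays too. The differences from WT were -0.42 ± 0.102 in oga-1 (adjusted p = 0.0664, and 0.0492 with the replicate block on the 2 strains alone) and -0.31 ± 0.102 in ogt-1 (adjusted p = 0.131). Neither passed without that block. The values of cyp-37A1 were 9.45, 9.61 and 9.23 in oga-1, 9.28, 9.42 and 9.62 in ogt-1, and 9.71, 9.79 and 9.60 in WT, and its differences were -0.27 in oga-1 and -0.26 in ogt-1 (adjusted p = 0.372 and 0.344 in that order). In the cyp-31A group, which includes genes needed for the lipid layer of the eggshell, the pseudogene cyp-31A1 read 7.98, 7.89 and 8.33 in oga-1, 8.31, 8.21 and 8.21 in ogt-1, and 8.17, 7.79 and 7.97 in WT. Its ogt-1 arrays lay above its WT arrays (adjusted p = 0.365), on a probe set with the suffix s. The others, cyp-31A2, cyp-31A3 and cyp-31A5, had differences between -0.13 and 0.14 in both mutants. For cyp-42A1 the arrays read 6.52, 6.66 and 6.82 in oga-1, 6.59, 6.98 and 7.04 in ogt-1, and 6.86, 7.0 and 6.86 in WT, with oga-1 below WT on every array (adjusted p = 0.486). The gene cyp-29A2 read 6.45, 7.01 and 6.24 in oga-1, 6.15, 6.43 and 6.52 in ogt-1, and 6.88, 6.93 and 6.38 in WT, with overlapping arrays, and cyp-29A3, known with cyp-33E2 for eicosanoid synthesis, averaged 5.61 in oga-1, 5.71 in ogt-1 and 5.69 in WT, at background.

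Clan 3, the cyp-13, cyp-25 and cyp-43 families, had 15 genes, and in mammals this clan holds broad-range drug-metabolising enzymes. None was called in oga-1, where the median was 0.02, and 1 fell in ogt-1, where the median was -0.13. The gene that fell, cyp-13A2, read 6.23, 6.33 and 6.38 in oga-1, 6.43, 5.95 and 5.82 in ogt-1, and 6.76, 6.51 and 6.87 in WT. Its ogt-1 mean lay below the background level, so the size of the fall, 1.56-fold as read, is uncertain. The 95% interval of the ogt-1 minus WT log2 difference was -0.98 to -0.31. All 6 mutant arrays lay below the WT arrays, ogt-1 replicate 1 by the least. The change of -0.65 ± 0.155 (adjusted p = 0.0413) lost its call after quantile normalisation (0.0662) or median centring (0.0519), in a fit on the 2 strains alone (0.0584), and without WT replicate 1 (0.102), WT replicate 3 (0.136), replicate 2 (0.175) or 3 (0.179) of ogt-1, or replicate 1 of oga-1 (0.0633). The difference in oga-1 was -0.39 (adjusted p = 0.265). The gene cyp-13A5 read 8.41, 8.04 and 8.04 in oga-1, 8.0, 8.05 and 7.83 in ogt-1, and 8.33, 8.14 and 7.95 in WT, without a gap between strains. The gene cyp-13A4, at background, read 5.52, 5.66 and 5.66 in oga-1, 5.47, 5.42 and 5.50 in ogt-1, and 5.39, 5.38 and 5.52 in WT. Also at background, cyp-13A10 read 5.79, 5.91 and 5.70 in oga-1, 5.87, 6.06 and 5.88 in ogt-1, and 6.04, 5.93 and 5.68 in WT. In the cyp-25A group cyp-25A2 read 7.08, 7.17 and 7.31 in oga-1, 7.03, 7.36 and 7.51 in ogt-1, and 7.32, 7.33 and 7.38 in WT, with every oga-1 array below every WT array and neither difference called (-0.16 in oga-1 and -0.04 in ogt-1). The single cyp-43 gene, cyp-43A1, read 8.04, 7.73 and 7.81 in oga-1, 7.91, 7.94 and 7.84 in ogt-1, and 7.93, 7.83 and 7.01 in WT. WT replicate 3 lay below the other 8 arrays, and neither difference from WT (0.27 in oga-1 and 0.31 in ogt-1) was called; without that array the oga-1 difference was -0.02. Of the genes in no clan named here, the P450 of mitochondria, cyp-44A1, read 6.88, 6.49 and 7.15 in oga-1, 6.96, 6.98 and 7.12 in ogt-1, and 7.38, 7.09 and 7.33 in WT, with -0.42 in oga-1 (adjusted p = 0.219) and -0.24 in ogt-1, and cyp-23A1 read 5.28, 5.29 and 4.97 in oga-1, 5.38, 5.24 and 5.06 in ogt-1, and 5.35, 5.23 and 5.22 in WT, at background.

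The largest spread within a strain was seen for cyp-13B1, cyp-13A7 and cyp-13A6. The gene cyp-13B1 read 7.76, 7.55 and 6.56 in oga-1, 7.27, 7.46 and 7.28 in ogt-1, and 8.61, 7.61 and 6.63 in WT. Its standard deviation was 0.645 in oga-1, 0.104 in ogt-1 and 0.989 in WT. The gene cyp-13A7, known as induced by drugs, read 8.14, 7.23 and 6.40 in oga-1, 6.25, 6.69 and 6.31 in ogt-1, and 7.30, 6.96 and 6.17 in WT, with a standard deviation of 0.868 in oga-1, 0.237 in ogt-1 and 0.580 in WT. Values of cyp-13A6 were 7.50, 6.66 and 5.79 in oga-1, 5.69, 6.65 and 5.66 in ogt-1, and 6.69, 5.91 and 5.84 in WT, with the ogt-1 and WT means below the background level. In all 3 genes replicate 1 was the highest and replicate 3 the lowest array of both oga-1 and WT, and replicate 2 was the highest of ogt-1. Among the 10 P450 genes with the largest standard deviation within a strain, replicate 3 was the lowest array in oga-1 for 7 and in WT for 8, and in both for 7. The labels give no batch that these numbers stand for. Of the 73 genes, 54 had a standard deviation under 0.3 in every strain, and the median was 0.149 in oga-1, 0.123 in ogt-1 and 0.153 in WT, beside 0.151, 0.111 and 0.139 over all probe sets in the same order.

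**Figure D4:**
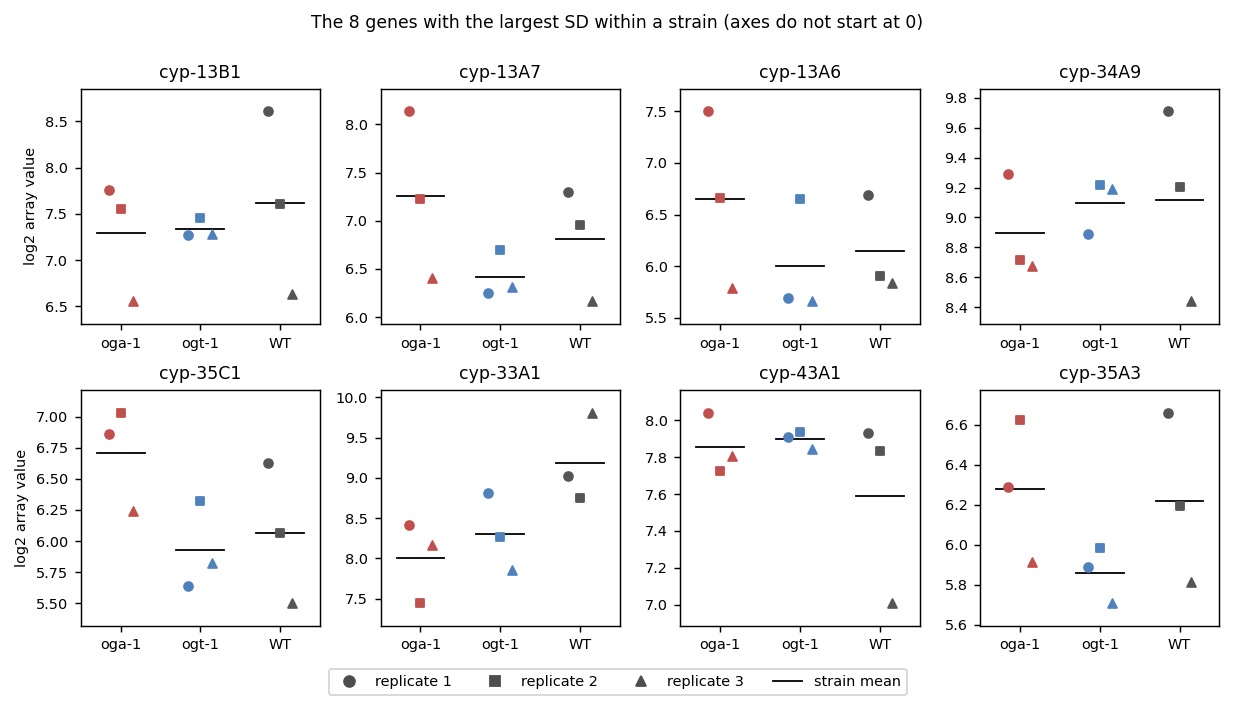
Log2 array values (y axis, not starting at 0) of the 8 P450 genes with the largest standard deviation within a strain, in oga-1, ogt-1 and WT (x axis), with a marker shape for each replicate and a line for the strain mean. For cyp-13B1, cyp-13A7 and cyp-13A6, replicate 1 is the highest and replicate 3 the lowest array of both oga-1 and WT, and the strains overlap.

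Across all probe sets, arrays of oga-1 and WT with the same replicate number deviated together from their strain means (r from 0.357 to 0.481 in the 3 pairs), so the comparison of oga-1 with WT was also fitted with replicate number as a block on these 2 strains. With the block, 6 P450 genes were lower in oga-1 and 1 was higher, where 5.84% of all probe sets were called, 3.29% lower and 2.55% higher. The 4 further genes called lower were cyp-33A1 (-1.18 ± 0.17, adjusted p = 0.00354), cyp-33C3 (adjusted p = 0.0335), cyp-33C5 (0.0485) and cyp-37B1 (0.0492), and cyp-35C1 was called higher (0.65 ± 0.14, adjusted p = 0.0241), with its WT mean below the background level and its dimmer probe set lower in value, as given above. The falls of cyp-32B1 (adjusted p = 0.00702) and cyp-33C4 (0.00667) were called in this fit as well. With the block on all 9 arrays, cyp-33A1 was the 1 further gene called in oga-1 (adjusted p = 0.0384), where 3.32% of all probe sets were called, 1.93% lower and 1.39% higher.

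The mutants were also compared with each other, to find P450 genes that differ between loss of the removing and loss of the adding enzyme. None of the 73 was called in oga-1 against ogt-1, beside 0.514% of all probe sets (0.146% higher and 0.368% lower). At an unadjusted p under 0.05, 5 of the 73 genes (6.85%) were higher in oga-1 and 0 lower, where 2.94% of all 17118 genes were higher and 2.41% lower. By the same measure against WT, 4.11% of the 73 were higher and 12.3% lower in oga-1, where 6.77% and 8.1% of all genes were. In ogt-1 against WT, 2.74% of the 73 were higher and 15.1% lower, where 8.53% and 9.04% of all genes were. In oga-1 against ogt-1, the lowest adjusted p was that of cyp-33C8, at 0.197. The arrays of oga-1 lay wholly above those of ogt-1 for 5 genes and wholly below for 1, or 8.22%, where 9.87% of all probe sets did not overlap (4.66% above and 5.21% below). The largest difference was that of cyp-13A7 (0.83 ± 0.372, adjusted p = 0.930, 95% interval 0.02 to 1.65). For cyp-33C4 the oga-1 arrays lay above the ogt-1 arrays, by 0.32 ± 0.145 (adjusted p = 0.930). For 70 of the 73 genes the 95% interval lay within 2-fold either way, and the exceptions were cyp-13A6, cyp-13A7 and cyp-35C1.

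Genes that work with P450s were read beside them. Of 4 partner genes, counting the P450 daf-9, none was called in oga-1 and 1 rose in ogt-1, where 1.79% of all probe sets were called higher. At an unadjusted p under 0.05, 3 of the 4 were lower in oga-1, and 2 were lower and 1 higher in ogt-1. Of all 17118 genes, 8.1% were lower in oga-1 and 9.04% in ogt-1 at that threshold. The riser was cytb-5.2, a cytochrome b5 that can hand electrons to P450s, at 13.24, 12.81 and 13.33 in oga-1, 13.66, 13.68 and 13.77 in ogt-1, and 13.05, 13.05 and 13.07 in WT. All ogt-1 arrays lay above all others, by 0.65 ± 0.130 against WT (adjusted p = 0.0186), a call lost without WT replicate 1 (0.0514), WT replicate 2 (0.0547), ogt-1 replicate 2 (0.0778) or ogt-1 replicate 3 (0.0891). The reductase gene emb-8 read 10.02, 9.81 and 10.21 in oga-1, 10.13, 9.78 and 9.82 in ogt-1, and 10.31, 10.17 and 10.61 in WT, with differences of -0.35 in oga-1 (adjusted p = 0.302) and -0.46 in ogt-1 (adjusted p = 0.122). The other cytochrome b5 gene, cytb-5.1, read 10.57, 10.14 and 10.65 in oga-1, 10.36, 10.64 and 10.70 in ogt-1, and 10.88, 10.83 and 10.77 in WT, below WT on all 6 mutant arrays and not called (-0.37 in oga-1, adjusted p = 0.245, and -0.26 in ogt-1, adjusted p = 0.419). For daf-9 the arrays read 6.93, 7.06 and 6.87 in oga-1, 7.05, 6.94 and 6.93 in ogt-1, and 7.32, 7.46 and 7.14 in WT, below WT on all 6 mutant arrays and not called (adjusted p = 0.139 in oga-1 and 0.124 in ogt-1).

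Of 6 genes for epoxide hydrolases and for the desaturases that supply polyunsaturated fatty acids to P450s, 2 fell in each mutant. The list was chosen with earlier results of these data known. Of all probe sets, 1.21% were called lower in oga-1 and 2.12% in ogt-1. The desaturase fat-4 read 11.90, 11.59 and 11.86 in oga-1, 11.60, 11.76 and 11.79 in ogt-1, and 12.33, 12.32 and 12.24 in WT, and fell by 0.52 in oga-1 (adjusted p = 0.0387) and by 0.58 in ogt-1 (adjusted p = 0.0134). The epoxide hydrolase ceeh-2, which opens the epoxides that P450s make, read 7.22, 7.12 and 7.03 in oga-1, 7.56, 7.49 and 7.31 in ogt-1, and 7.99, 7.94 and 7.44 in WT, and fell by 0.66 in oga-1 (adjusted p = 0.0412). The desaturase fat-3 fell by 0.47 in ogt-1 (adjusted p = 0.0497). In oga-1 the fat-4 call was lost without any WT array, ogt-1 replicate 2 or 3, or oga-1 replicate 1 or 2 (adjusted p up to 0.0997), and in ogt-1 without ogt-1 replicate 2 (0.0581). The ceeh-2 call was lost without any 1 array but WT replicate 3 (up to 0.128), and the fat-3 call without WT replicate 1 or 3, any ogt-1 array or oga-1 replicate 1 (up to 0.170). In fits on the 2 strains alone the calls of fat-4 in oga-1 (0.0986), ceeh-2 (0.104) and fat-3 (0.0578) were lost too, and that of fat-3 also after median centring (0.0718) and without the dimmest 25% of the probe sets (0.0503).

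Of 4 measured haem-handling genes none was called in either mutant. Among all probe sets 1.79% were called higher in ogt-1. Of 11 measured regulators and efflux pumps of detoxification, 1 rose in ogt-1 and none was called in oga-1. It was nhr-48, a nuclear receptor related to NHR-8, at 10.11, 9.60 and 9.81 in oga-1, 10.04, 9.86 and 9.97 in ogt-1, and 9.46, 9.21 and 9.09 in WT (0.71 ± 0.143 in ogt-1, adjusted p = 0.0187, and 0.59 in oga-1, adjusted p = 0.0618). The call was lost without WT replicate 2 or 3 or any ogt-1 array (adjusted p up to 0.0805). The other 10, among them the xenobiotic receptor gene nhr-8, ahr-1, skn-1, mdt-15, nhr-49 and daf-16, were not called. The widest differences among these were those of the efflux pump genes, at -0.57 in oga-1 and -0.48 in ogt-1 for pgp-3 (adjusted p = 0.208 and 0.250 in that order), and at 0.49 in oga-1 and 0.46 in ogt-1 for pgp-1 (adjusted p = 0.156 and 0.139 in that order).

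Some tissue markers changed in the same larvae. Among all probe sets 0.727% were called higher and 1.21% lower in oga-1, and 1.79% higher and 2.12% lower in ogt-1. Of 11 intestinal markers 1 was called in each mutant, the metallothionein mtl-2, higher by 1.21 in oga-1 (adjusted p = 0.00185) and 1.62 in ogt-1 (adjusted p = 6.73e-05), and the summed linear signal of the list was 45720 to 49310 in oga-1, 45360 to 48980 in ogt-1 and 45030 to 45930 in WT. Of 7 body wall muscle markers 2 rose in oga-1 and 1 in ogt-1, with a summed signal of 34430 to 37630 in oga-1, 34460 to 35260 in ogt-1 and 23890 to 30650 in WT, so that every mutant array lay above every WT array. Among them unc-54 rose by 0.81 in oga-1 (adjusted p = 0.0139, 0.0531 in the fit on the 2 strains alone and 0.0692 without oga-1 replicate 1) and 0.76 in ogt-1 (adjusted p = 0.00939), and myo-3 by 0.90 in oga-1 (adjusted p = 0.0490, lost in the fit on the 2 strains alone, 0.102, and without any 1 array but WT replicate 1, up to 0.181). Of 8 pharyngeal markers none was called, and their sum was 14120 to 16490 in oga-1, 13780 to 16990 in ogt-1 and 16280 to 20080 in WT. None of the 8 hypodermal or 7 neuronal markers was called, and of 8 germline or embryo markers glh-1 fell in ogt-1 (-0.48, adjusted p = 0.0434), a call lost, among other settings, without any WT or ogt-1 array (adjusted p up to 0.179). Between the mutants 1 intestinal marker, the protease gene cpr-1, was higher in oga-1 than in ogt-1 (1.14, adjusted p = 0.0429), a call lost after quantile normalisation (0.0544) and without WT replicate 1, ogt-1 replicate 2 or 3, or any oga-1 array (up to 0.238). The part of tissue make-up in the P450 changes was not tested.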

How the data were processed

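Total RNA of whole starved larvae (4 ug a sample, 3 arrays a strain) was hybridised to 1-colour Affymetrix arrays. The deposited values are log2 expression values per probe set, a scale read from the values themselves, and the submitters' processing notes list Partek, MAS5 and RMA with no role for any. All 9 arrays had nearly the same mean, as normalised arrays do. Values ran from 4.16 to 14.7, and no further normalisation was applied. Probe-level intensities were not analysed here, so no detection call was used. The highest strain mean of 5 yeast control probe sets, 6.26, served as a background level, a choice made after the values were seen.

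Of 22625 probe sets, 77 controls were left out. Platform annotation gives 20766 of the rest 1 symbol, 887 several and 895 none. The WBcel235 gene table held all 73 P450 symbols, with 0 changed, and the files name no build, so no coordinates are given. Clans were assigned from family numbers after the values were known. The members and lists were chosen with earlier results of these data known.

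All 9 arrays were fitted with limma 3.58.1 (R 4.3.3), with 6 residual and 5.65 prior degrees of freedom, and p-values were adjusted by Benjamini-Hochberg over 22548 probe sets. The test was checked on simulated data in which arrays varied independently. That check does not cover the shared deviations of oga-1 and WT arrays of the same replicate number. The labels call the replicates biological without naming separate cultures, so p-values measure only the spread between these samples. By the rule used, any member could be named, and array values are given for the called ones, the 8 largest differences each way per comparison, the brightest of each subfamily and the 3 with the largest spread within a strain. Outside these, cyp-34A5, cyp-33C6, cyp-33C7, cyp-33C12, cyp-33E2, cyp-29A3 and the further cyp-31A genes were picked after their values were seen. Alternatives were quantile normalisation, median centring, filters on the dimmest probe sets, fits on 2 strains, robust fitting with a variance trend, a stricter threshold, averaging of probe sets, the replicate block, and leaving out each array.

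Pairing was checked by correlating deviations from the strain means between arrays of the same replicate number. These correlated at 0.357 to 0.481 for oga-1 with WT, at 0.0721 to 0.113 for oga-1 with ogt-1 and at -0.096 to -0.00231 for ogt-1 with WT, so the numbers were taken to pair oga-1 with WT arrays alone. The block on these 2 strains was added after seeing the data, and its fit has fewer residual degrees of freedom than that over all arrays.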

Additional observations from a re-analysis of the deposited data

How the results depend on the processing

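Of the P450 genes called lower, 2 in oga-1 and 5 in ogt-1, the counts over the settings that each left out 1 array ran from 1 to 2 in oga-1 and from 2 to 5 in ogt-1. The count was 1 in oga-1 without WT replicate 3 or oga-1 replicate 1, and in ogt-1 it was 2 without WT replicate 3 or ogt-1 replicate 2 and 3 without ogt-1 replicate 1 or 3. The fall of cyp-32B1 in both mutants and that of cyp-33C4 in ogt-1 were called under every alternative tried. In oga-1 the count lower was 1 in the fit on the 2 strains alone and 1 at an adjusted p under 0.01. With the replicate block on the 2 strains alone it was 6, with 1 gene higher, and with the block on all 9 arrays it was 3. Of all probe sets, the first of these fits called 3.29% lower and 2.55% higher, and the second 1.93% lower. In ogt-1 the count lower was 3 after quantile normalisation and 2 at an adjusted p under 0.01. The numbers do not pair ogt-1 with WT, and the block on all 9 arrays moved no other count of P450 calls by more than 1.5 times. The oga-1 minus WT difference of cyp-43A1, 0.27 and not called, was -0.02423 without WT replicate 3 (adjusted p = 0.984) and ran from -0.02423 to 0.44 over the settings that left out 1 array. The cause of these shifts was not tested. After median centring the median over the P450 genes was -0.0405 in ogt-1 minus WT, against -0.0761 as reported. That of all probe sets was 0.0408, against 0.00529. For oga-1 minus ogt-1 the P450 median was -0.0165, against 0.00704, and that of all probe sets -0.022, against 0.00155. Median centring shifts every value of an array alike, so the P450 genes moved with all probe sets. With 3 arrays a strain the median standard error was 0.125, and 38 of the 73 genes were not shown above background in any strain, which limits what can be said of their changes.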

Other observations

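The pair of probe sets that carry more than 1 cyp- symbol were not called in either mutant. The probe set shared by cyp-13A12 and cyp-13A11 averaged 4.91 in oga-1, 4.77 in ogt-1 and 4.86 in WT, at background. The probe set shared by cyp-25A5 and cyp-25A4 averaged 6.75 in oga-1, 6.76 in ogt-1 and 6.87 in WT, with overlapping arrays.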
